A study of Homo sapiens with 12 samples.

Results

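The clustered histone genes lie in arrays on chromosome 6, in further clusters on chromosome 1 and at a lone site on chromosome 12. By the deposited coordinates (GRCh38), they include HIST1H1C (ENSG00000187837, chromosome 6, 26055787 to 26056428, minus strand), HIST1H2BK (ENSG00000197903, chromosome 6, 27146418 to 27146798, minus) and HIST2H2AA3 (ENSG00000203812, chromosome 1, 149842188 to 149842736, minus). They were taken as the protein-coding genes on numbered chromosomes whose symbol starts with HIST1H, HIST2H, HIST3H or HIST4H, which gave 71 genes of the 60675 in the deposited table. The RNA came from U-2932, a human line of diffuse large B cell lymphoma, and the libraries are labelled polyA+. All cells carried a stably expressed Roquin2, an RNA-binding protein (gene RC3H2) known to target certain stem-loops in 3′ UTRs and to speed the loss of the mRNAs that carry them. The 4 groups were Y691F Roquin2 with IgM, WT Roquin2 with IgM, Y691F Roquin2 untreated and WT Roquin2 untreated. IgM stands for F(ab')2-IgM, an antibody fragment that engages the B cell receptor, given at 10 µg/ml for 12 h. Each group held 3 libraries, which the submitters call independent biological replicates. The labels do not say whether each form was 1 clone or several, nor what the cells' own Roquin2 contributed.

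Histones pack DNA: H2A, H2B, H3 and H4 form the nucleosome core, and H1 binds the linker DNA between nucleosomes. Most mRNAs of the clustered genes are made in S phase and end in a conserved stem-loop, bound by the protein SLBP, in place of a poly(A) tail. Some of the genes also have a poly(A) signal further downstream, and tailed transcripts of such genes are known mainly from resting and differentiating cells. A library selected for poly(A) therefore samples these genes unevenly, and the level of a member here is not the level of its total mRNA.

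The stem-loop shows which gene models include the processed 3′ end, so it is given for members on which the results turn. The motif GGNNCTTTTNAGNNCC was searched on the transcript strand of the GENCODE v29 transcripts (GRCh38), with N for any base. It occurred in 31 of the 71 members (43.7%), against 80 of all 58676 genes (0.136%). In the lines below, the 16 capitals are the motif and the lower-case letters its 5 neighbours on each side.
HIST1H2AC: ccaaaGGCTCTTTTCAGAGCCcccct
HIST1H2AG: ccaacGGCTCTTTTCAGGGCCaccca
HIST1H2BD: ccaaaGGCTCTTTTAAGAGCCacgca
HIST2H2AA3: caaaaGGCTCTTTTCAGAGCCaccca
HIST1H4H: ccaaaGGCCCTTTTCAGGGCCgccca
HIST2H4A: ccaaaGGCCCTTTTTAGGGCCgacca
The 16 bases lie at chr6:26124669-26124684 (plus strand) in HIST1H2AC and at chr6:27133515-27133530 (plus) in HIST1H2AG. They lie at chr6:26158587-26158602 (plus) in HIST1H2BD and at chr1:149842223-149842238 (minus) in HIST2H2AA3. In HIST1H4H they lie at chr6:26285131-26285146 (minus), and in HIST2H4A at chr1:149833032-149833047 (plus). The members held 5 distinct versions of the 16 bases. The version of HIST1H2AC was shared by 17 members of the H2A, H2B and H3 classes, the version of HIST1H4H by 5 members, all H4, and that of HIST2H4A by 3, all H4. The version of HIST1H2AG was found in that gene alone among the members. In all 6 genes the motif starts shortly after the stop codon, by 35 bases in HIST2H4A, 36 in HIST1H2BD, 41 in HIST1H4H, 43 in HIST1H2AC, 50 in HIST1H2AG and 67 in HIST2H2AA3.

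The gene models differ in what follows the stem-loop. Of the 71 members, 22 have a transcript that runs over 100 bases past the motif, among them HIST1H2AC (1128 bases), HIST2H4A (1167), HIST1H4H (1655) and HIST1H2AG (1761). In 15 of these 22, the poly(A) signal AATAAA stands in the last 50 bases of a transcript. Another 9 members end within 100 bases of the motif, such as HIST2H2AA3 (35 bases after it). HIST1H2BD also falls here (39 bases), and another of its transcripts ends without the motif. The models of 35 members stop at the stop codon and hold no 3′ UTR at all, which includes HIST1H2BK and HIST1H1C. The last 5 members have a 3′ UTR without the motif, which includes HIST1H1E, HIST1H4C and HIST1H2BJ. Absence of the motif from a model says only that these letters are not in the annotated transcript. Reads past the end of a model could not be counted to that gene, and 68 of the 71 gene spans in the deposited table equal those of v29.

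Many H2A and H2B genes sit head to head and share 1 promoter region. RefSeq promoters (GRCh38.p14, 250 bases before to 50 after the start) were matched for 66 members by ID or older symbol and an overlapping gene span, which gave 70 promoters, since 4 members have 2. The promoters of HIST1H2BJ and HIST1H2BK are shown from 250 bases before the start, because each lies between an H2B gene and an H2A gene whose responses to IgM are given with the pairs of neighbours. The capitals mark ATTTGCAT (the octamer), CCAAT and TATAAA, each on either strand, and TTTATAAA is an overlap of TATAAA with its own reverse strand.
HIST1H2BJ: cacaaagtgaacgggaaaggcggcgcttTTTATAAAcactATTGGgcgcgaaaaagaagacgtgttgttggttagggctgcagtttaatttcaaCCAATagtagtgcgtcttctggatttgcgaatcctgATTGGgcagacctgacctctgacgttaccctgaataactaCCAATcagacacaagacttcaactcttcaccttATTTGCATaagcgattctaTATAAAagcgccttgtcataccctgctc
HIST1H2BK: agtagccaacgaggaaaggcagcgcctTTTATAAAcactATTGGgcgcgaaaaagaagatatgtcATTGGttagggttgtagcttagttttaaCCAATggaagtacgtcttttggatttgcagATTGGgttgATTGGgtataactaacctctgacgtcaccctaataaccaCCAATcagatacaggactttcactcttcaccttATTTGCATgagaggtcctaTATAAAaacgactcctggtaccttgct
The HIST1H2BJ sequence is chr6:27132796-27133045 and the HIST1H2BK sequence chr6:27146859-27147108, both on the minus strand. Each has TATAAA near either end, which faces the H2B gene at one end and the H2A gene at the other. The octamer was found in 68.8% of H2A and 75.0% of H2B promoters, in 6.67% of H3 promoters and in none of the 6 H1 or 13 H4 promoters. Of all 35116 RefSeq promoters in the table, 1.77% held it. Promoters of head-to-head H2A and H2B genes can overlap, as do those of HIST1H2BJ (27132746 to 27133045) and HIST1H2AG (27132793 to 27133092). The same octamer can thus be counted in both classes. The only H3 promoter with the octamer is 1 of 2 listed for HIST1H3D. Its interval, chr6:26199244-26199543, is also that of the HIST1H2AD promoter. CCAAT stood in 100% of the H1, H2A, H2B and H3 promoters and in 23.1% of the H4 promoters, against 34.6% of all promoters. TATAAA stood in 67.1% of the members' promoters, against 11.5% of all.

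In spite of the poly(A) selection, most members were detected. Summed over the 12 libraries, 64 of the 71 had at least 1 read, 58 had at least 10, and 42 passed the filter on low counts and were tested. CPM are counts scaled to library depth, with TMM factors wherever levels are given. The filter, set on the library totals without these factors, was about 0.540 CPM in at least 3 libraries, and 37 of the 42 were over it in all 12. The members that were over it in fewer were HIST1H4I and HIST3H2BB (4 libraries each), HIST1H2AK (7), and HIST1H4E and HIST2H2AA4 (11 each). For HIST3H2BB these were the libraries of Y691F with IgM and replicate 1 of WT with IgM. For HIST1H4I they were the libraries of Y691F untreated and replicate 1 of WT untreated. Both genes thus passed only through the group where they were highest, which limits what their calls show. No read was counted on HIST1H2AA, HIST1H2BA, HIST1H3D, HIST1H3E, HIST1H4G, HIST2H3PS2 and HIST3H3. A count of 0 allows up to 3 counts, which is 0.140 to 0.182 CPM per library and covers counting error only. HIST1H2AA, HIST1H2BA and HIST3H3 are known as testis histones. For HIST1H3D the 0 may not mean absence, since it lies on the same strand within RP1-34B20.21, a gene model with 202 reads. The same holds for HIST2H3PS2, since 100% of the 50-base windows of its transcript recur in other genes.

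The classes were represented unequally. H2B genes took 39.5% of the 65735 member reads, with 14 of 18 genes tested, and H1 genes took 27.7%, with 4 of 6 tested. H4 genes took 15.8% (8 of 15 tested) and H2A genes 13.2% (11 of 17 tested). H3 genes took 3.99%, with 5 of 15 tested. HIST1H2BK alone held 26.2% of the member reads, and with HIST1H1C the share was 43.1%. The 10 members with most reads held 75.2%.

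The library totals ran from 16465393 to 21478790 counts and the TMM factors from 0.939 to 1.07. All 6 B cell markers were over 1 CPM in every library, with a sum of 2135 to 3277 CPM. The T and NK cell markers summed to 0.446 to 1.71 CPM, with 3 of 6 at 0, and the myeloid markers to 0.756 to 1.58 CPM, with 1 of 5 at 0. The fibroblast and epithelial markers summed to 19.5 to 26.8 CPM, with EPCAM alone over 1 CPM throughout. RC3H2 itself averaged 206 ± 1.79 CPM in Y691F with IgM and 121 ± 1.80 CPM in WT with IgM, and 209 ± 0.880 CPM in Y691F untreated and 111 ± 1.08 CPM in WT untreated (SD, n = 3). Form and RC3H2 mRNA level thus differed together. Y691F untreated replicate 3 stood apart in RNAs that have no poly(A) tail. It had 52.7 CPM of RN7SK, a small nuclear RNA, against 15.3 to 25.2 in the other 11 libraries. It had 259.5 CPM over genes annotated as rRNA, against 89.9 to 138 CPM. That library was the highest of its group in 33 of the 42 tested members, and its part in the results was not tested beyond leaving it out.

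Between genes, levels are given as the deposited RPKM (reads scaled to gene length and library depth), as the mean of the 12 libraries. HIST1H2BK came first at 166.6 RPKM, followed by the linker histone gene HIST1H1C at 63.8. The H4 gene HIST1H4C stood at 42.3 RPKM, the H1 gene HIST1H1E at 25.0 and the H2A gene HIST2H2AA3 at 20.1. HIST1H4C (ENSG00000197061) spans 26103876 to 26104310 and HIST1H1E (ENSG00000168298) 26156354 to 26157107, both on the plus strand of chromosome 6. A wide gap followed. HIST1H2BD at 7.35, HIST1H2BJ at 7.27, HIST1H4K at 7.09 and HIST1H1D at 7.08 RPKM could not be placed in an order, since they lay closer together than the spread between libraries. No H3 gene exceeded the 3.57 RPKM of HIST1H3H. The leading pair kept its order in every group, with HIST1H2BK at 275 ± 11.7 RPKM in Y691F with IgM, 192 ± 5.40 in WT with IgM, 113 ± 5.56 in Y691F untreated and 86.7 ± 5.33 in WT untreated (SD, n = 3). HIST1H1C stood at 105 ± 1.74 RPKM in Y691F with IgM, 79.2 ± 2.57 in WT with IgM, 43.3 ± 1.88 in Y691F untreated and 27.2 ± 0.677 in WT untreated.

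**Figure D1:**
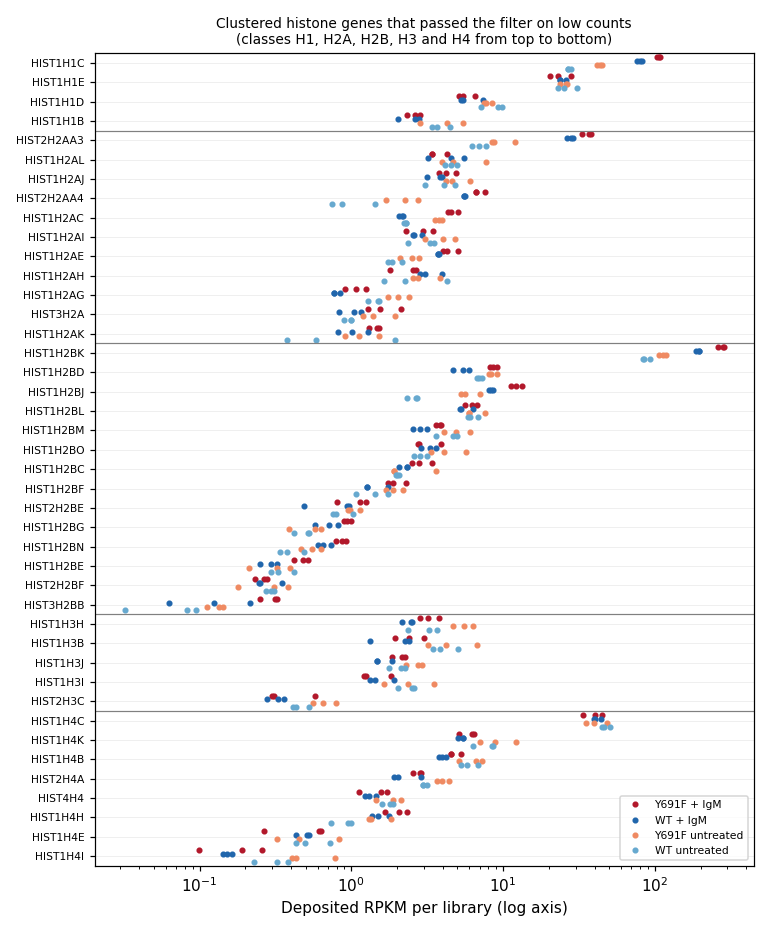
Deposited RPKM (log axis) of the 42 tested clustered histone genes, one row per gene and one point per library, with colours for the 4 groups and horizontal lines between classes. HIST1H2BK and HIST1H1C stand to the right, HIST1H4C and HIST1H1E hold nearly the same place in all groups, and the H3 genes stay under 10 RPKM; values listed at 0 would not be drawn.

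With IgM the members moved in both directions. In Y691F, 12 of the 42 tested members were called higher with IgM and 10 lower, at an adjusted p under 0.05 in the quasi-likelihood test of edgeR. Over all 15112 tested genes, 37.1% were called higher and 38.7% lower in that comparison. In WT, 9 members were called higher and 9 lower, against 38.4% and 38.5% of all tested genes. The median log2 change of the members was 0.06 in Y691F and 0.02 in WT, and that of all tested genes was -0.01 and 0.00. In both forms, the share of members called was thus below that of all genes. The shares were not compared at matched read counts. Some tested members had few reads over the 12 libraries, such as HIST3H2BB (102) and HIST1H4I (107), which lowers the power to call them. The Y691F counts include both, HIST3H2BB as higher and HIST1H4I as lower. Each passed the filter only through the group where it was highest, which limits what these calls show. All 9 members called higher in WT were also called higher in Y691F, where they made up 75.0% of the calls. The lower calls shared 6 members, which is 60.0% of those in Y691F and 66.7% of those in WT. The 2 comparisons have no library in common. In bulk RNA, fewer cells in S phase and less RNA per cell cannot be told apart.

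HIST1H2BK, an H2B gene, had 139, 129 and 138 CPM in Y691F with IgM and 47.2, 52.7 and 51.4 CPM in Y691F untreated. In WT it had 96.3, 90.7 and 96.2 CPM with IgM and 37.5, 37.6 and 41.3 CPM untreated. Each IgM library was above every untreated one, and the log2 change was 1.42 (SE 0.04, adjusted p = 4.68e-48) in Y691F and 1.28 (SE 0.05, adjusted p = 4.78e-42) in WT. HIST1H1C, which encodes the linker histone H1.2, had 89.5, 87.6 and 84.9 CPM in Y691F with IgM and 30.8, 32.9 and 34.3 CPM in Y691F untreated. The WT values were 63.8, 67.2 and 65.7 CPM with IgM and 21.3, 20.1 and 20.2 CPM untreated. It rose with IgM in both forms without overlap, by 1.42 (SE 0.05, adjusted p = 2.30e-45) in Y691F and 1.68 (SE 0.05, adjusted p = 2.31e-46) in WT.

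HIST2H2AA3, an H2A gene of the chromosome 1 cluster, had 23.6, 27.0 and 25.7 CPM in Y691F with IgM and 5.38, 5.64 and 7.86 CPM in Y691F untreated. In WT it had 20.0, 18.5 and 20.4 CPM with IgM and 4.98, 4.45 and 4.02 CPM untreated. The IgM and untreated libraries did not overlap, with log2 changes of 2.02 (SE 0.09, adjusted p = 3.54e-34) in Y691F and 2.12 (SE 0.10, adjusted p = 5.56e-32) in WT. HIST2H2AA4 is a near-identical copy of it (97.1% of its 50-base windows recur elsewhere, mostly in HIST2H2AA3), so reads may be split between the pair. Summed, the copies averaged 30.5 ± 2.05 CPM in Y691F with IgM and 23.7 ± 0.972 CPM in WT with IgM, and 7.77 ± 1.47 CPM in Y691F untreated and 5.16 ± 0.698 CPM in WT untreated (SD, n = 3). The pair thus showed the same direction as each copy counted alone.

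HIST1H2BJ (ENSG00000124635, chromosome 6, 27125897 to 27132750, minus strand), an H2B gene with a spliced 3′ UTR in its model, had 15.01, 13.7 and 16.2 CPM in Y691F with IgM and 6.21, 5.85 and 7.91 CPM in Y691F untreated. The WT values were 10.3, 10.4 and 9.82 CPM with IgM and 3.02, 3.03 and 2.58 CPM untreated. No library of the IgM groups fell into the untreated range of the same form, and the log2 change was 1.16 (SE 0.10, adjusted p = 2.27e-19) in Y691F and 1.81 (SE 0.13, adjusted p = 1.87e-23) in WT. The remaining members called higher in both forms were HIST2H2AA4, HIST1H2AE, HIST1H2BG, HIST1H2BN and HIST1H4H, with log2 changes of 0.59 to 1.79 in Y691F and 0.63 to 2.59 in WT. HIST1H2AC, HIST1H2BE and HIST3H2BB were called higher in Y691F and not called in WT, and none of these had a called difference between the responses. The WT call of HIST1H2BG was lost with library totals (adjusted p = 0.0830), in DESeq2 (adjusted p = 0.0773), with no filter (adjusted p = 0.0540) and without WT untreated replicate 3 or WT with IgM replicate 1 or 3. HIST3H2BB was called in WT too without WT untreated replicate 1 (1.42, adjusted p = 0.0392) or WT with IgM replicate 3 (1.41, adjusted p = 0.0181). The call of HIST1H2BE was lost without Y691F untreated replicate 3 (adjusted p = 0.0644).

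**Figure D2:**
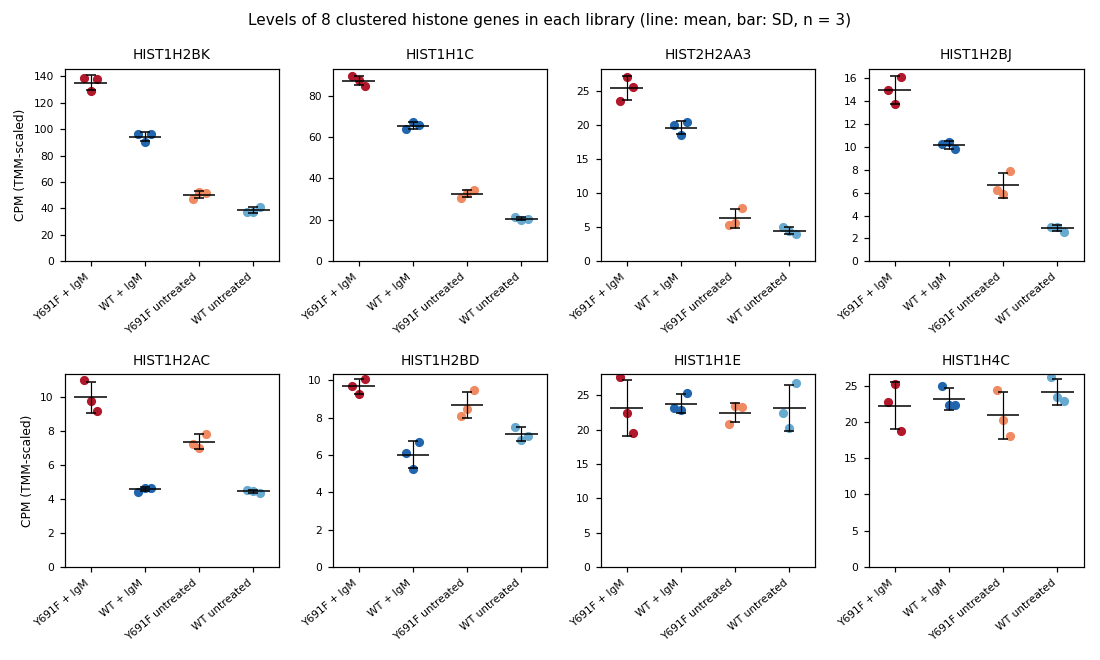
CPM (TMM-scaled, linear axis from 0) of 8 clustered histone genes in each of the 12 libraries, with the mean as a line and the SD as a bar (n = 3 per group). HIST1H2BK, HIST1H1C, HIST2H2AA3 and HIST1H2BJ stand higher with IgM in both forms, HIST1H2AC stands higher in Y691F than in WT, and HIST1H1E and HIST1H4C overlap between all groups.

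The lower calls fell mostly on H1, H3 and H4 genes. In Y691F, 4 of the 5 tested H3 genes, 3 of 8 H4 genes, 2 of 4 H1 genes, 1 of 11 H2A genes and none of 14 H2B genes were called lower. In WT the numbers were 1 H3, 3 H4, 2 H1, 1 H2A and 2 H2B genes. Over all tested genes, 38.7% were called lower in Y691F and 38.5% in WT. The H4 counts lay near these shares, and the H3 count was above its share in Y691F only. The classes hold few genes, and the H4 calls in Y691F include HIST1H4I, which passed the filter only through its highest group. The members called lower in both forms were the H1 genes HIST1H1B and HIST1H1D, the H2A gene HIST1H2AG, the H3 gene HIST1H3B and the H4 genes HIST1H4K and HIST2H4A. Their log2 changes ran from -0.32 (HIST1H1D) to -0.78 (HIST1H2AG) in Y691F and from -0.29 (HIST2H4A) to -0.91 (HIST1H3B) in WT. Without Y691F untreated replicate 3, the library with most RN7SK, the lower calls in Y691F were 5 in place of 10. HIST1H1B, HIST1H3B, HIST1H3I, HIST1H4K and HIST2H3C then missed the threshold. With library totals in place of TMM the split in Y691F was 12 higher and 16 lower, and under that scaling the median change of all genes was -0.18 in Y691F and -0.13 in WT. In WT the lower calls were 4 without WT untreated replicate 1 or without WT with IgM replicate 2, 5 without WT with IgM replicate 1, and 3 with the Wald test of DESeq2. Of the members called lower in both forms, DESeq2 did not call HIST1H1B, HIST2H4A and HIST1H4K in WT (adjusted p = 0.0526, 0.0722 and 0.101) or HIST1H1D in Y691F (adjusted p = 0.0773).

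Some abundant members were not called. HIST1H1E, which encodes the linker histone H1.4, had 27.6, 22.4 and 19.5 CPM in Y691F with IgM and 20.8, 23.4 and 23.3 CPM in Y691F untreated. In WT it had 23.2, 22.8 and 25.4 CPM with IgM and 22.4, 20.3 and 26.8 CPM untreated. All groups overlapped, and the log2 change was 0.05 in each form (SE 0.12, adjusted p = 0.716 in Y691F and 0.723 in WT). HIST1H4C had 22.8, 25.2 and 18.8 CPM in Y691F with IgM and 24.4, 20.3 and 18.03 CPM in Y691F untreated. The WT values were 25.0, 22.3 and 22.3 CPM with IgM and 26.1, 23.5 and 22.8 CPM untreated. These ranges overlapped too, with log2 changes of 0.09 (SE 0.11, adjusted p = 0.442) in Y691F and -0.06 (SE 0.10, adjusted p = 0.627) in WT. HIST1H4C was called higher with IgM in Y691F without Y691F untreated replicate 1 (0.22, adjusted p = 0.0144) or without Y691F with IgM replicate 3 (0.19, adjusted p = 0.0306).

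The 5 members HIST1H2BK, HIST1H1C, HIST2H2AA3, HIST1H2BJ and HIST2H2AA4 carried most of the gain in summed level. The 71 members together took 420.3 ± 12.7 CPM in Y691F with IgM, 325 ± 10.6 in WT with IgM, 251.5 ± 20.1 in Y691F untreated and 202.5 ± 7.98 in WT untreated (SD, n = 3). Without these 5, which were picked after their values were seen, the sums were 152 ± 11.8 CPM in Y691F with IgM, 131 ± 8.17 in WT with IgM, 154 ± 15.2 in Y691F untreated and 135 ± 6.79 in WT untreated. The sums without them overlapped between IgM and untreated libraries in each form.

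**Figure D3:**
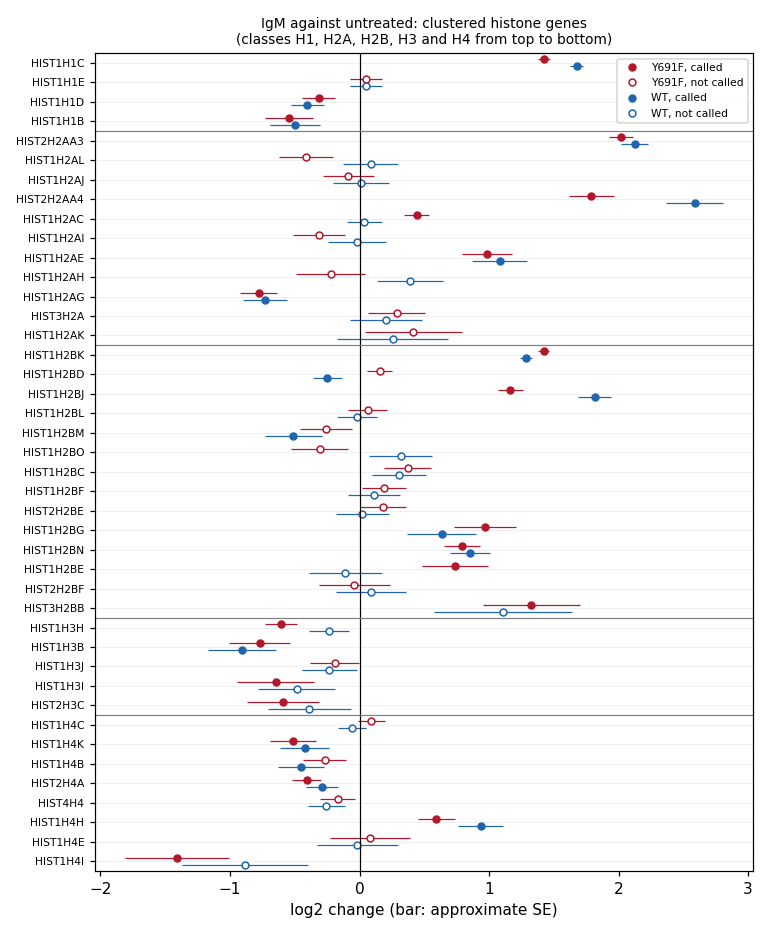
Log2 change with IgM against untreated for the 42 tested clustered histone genes in Y691F (red) and WT (blue), with approximate SE, filled where the adjusted p was under 0.05. Both signs occur, with 12 genes called higher and 10 lower in Y691F and 9 higher and 9 lower in WT; no H3 gene was called higher.

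Between the Roquin2 forms the calls went in 1 direction. With IgM, 14 of the 42 tested members (33.3%) were called higher in Y691F than in WT and 0 lower, against 21.9% and 20.2% of all tested genes. Untreated, 14 (33.3%) were called higher and 0 lower, against 15.1% and 16.1%. The count with IgM includes HIST3H2BB, which passed the filter only through Y691F with IgM, the group where it was highest. The quasi-likelihood test of edgeR gave 17 members higher and 0 lower at an unadjusted p under 0.05 in each of these comparisons, and the Wald test of DESeq2 also called 0 lower. The median log2 change was 0.33 with IgM and 0.32 untreated, where that of all tested genes was 0.00 and -0.01. Of the fitted changes, 34 of 42 were positive with IgM and 37 of 42 untreated. The calls shared 11 members, which is 78.6% of each set, and the comparisons have no library in common. Both compare the same forms within 1 fit, so a lasting difference between the cells of the forms would recur in both. The overlap is thus not an independent repeat.

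HIST1H2AC (ENSG00000180573, chromosome 6, 26124145 to 26139116, plus strand), an H2A gene, had 11.01, 9.76 and 9.19 CPM in Y691F with IgM and 4.43, 4.64 and 4.66 CPM in WT with IgM. Untreated, it had 7.27, 6.99 and 7.86 CPM in Y691F and 4.56, 4.45 and 4.36 CPM in WT. Every Y691F library was above every WT library, and the log2 difference was 1.13 (SE 0.11, adjusted p = 2.62e-14) with IgM and 0.72 (SE 0.11, adjusted p = 1.85e-07) untreated. The change of HIST1H2AC with IgM was called in Y691F (0.44, adjusted p = 4.58e-05) and not in WT (0.04, adjusted p = 0.802), and the difference between these changes missed the threshold (0.40, SE 0.17, adjusted p = 0.0618). It passed without Y691F untreated replicate 3 (0.45, adjusted p = 0.0473) or Y691F with IgM replicate 3 (0.46, adjusted p = 0.0400).

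HIST1H2BK, whose library values are given above, was higher in Y691F by 0.52 (SE 0.04, adjusted p = 3.12e-20) with IgM and by 0.38 (SE 0.05, adjusted p = 4.68e-10) untreated, without overlap. HIST1H1C was higher by 0.41 (SE 0.04, adjusted p = 3.80e-14) with IgM and by 0.67 (SE 0.06, adjusted p = 2.41e-17) untreated, also without overlap. HIST1H2BJ was higher by 0.55 (SE 0.09, adjusted p = 3.67e-07) with IgM and by 1.20 (SE 0.13, adjusted p = 2.16e-12) untreated. For these 3 genes the order of the group means was the same, with Y691F with IgM on top, then WT with IgM, Y691F untreated and WT untreated. HIST2H2AA3 followed the same order, with differences of 0.38 (adjusted p = 1.75e-05) with IgM and 0.48 (adjusted p = 0.00150) untreated. The untreated call of HIST2H2AA3 was lost without Y691F untreated replicate 3 (0.29, adjusted p = 0.0981).

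HIST1H2BD (ENSG00000158373, chromosome 6, 26158146 to 26171349, plus strand), an H2B gene, had 9.67, 9.28 and 10.1 CPM in Y691F with IgM and 6.11, 5.24 and 6.70 CPM in WT with IgM. Untreated, it had 8.10, 8.49 and 9.47 CPM in Y691F and 7.53, 6.81 and 7.0 CPM in WT. The forms did not overlap in either condition, with log2 differences of 0.69 (SE 0.11, adjusted p = 1.02e-07) with IgM and 0.29 (SE 0.10, adjusted p = 0.0206) untreated. The untreated call was lost without Y691F untreated replicate 3 (0.22, adjusted p = 0.138), without WT untreated replicate 2 or 3 (adjusted p = 0.10 and 0.0549) and in DESeq2 (adjusted p = 0.0918). HIST1H2BD was called lower with IgM in WT (-0.25, SE 0.11, adjusted p = 0.0421), a call lost in DESeq2 (adjusted p = 0.0927), with no filter (adjusted p = 0.0829) and without WT untreated replicate 1 or 3 or WT with IgM replicate 1 or 2. It was not called in Y691F (0.16, SE 0.10, adjusted p = 0.139).

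By class, the Y691F calls with IgM were 7 of 14 H2B genes, 4 of 11 H2A, 1 of 4 H1, 1 of 5 H3 and 1 of 8 H4. Untreated they were 5 of 14 H2B, 5 of 11 H2A, 1 of 4 H1, 1 of 5 H3 and 2 of 8 H4. Of all tested genes, 21.9% were called higher in Y691F with IgM and 15.1% untreated. The H1, H3 and H4 counts rest on 1 or 2 genes each, too few to set against these shares. The H3 gene in both sets was HIST1H3H (0.48 with IgM and 0.86 untreated), and the H4 gene in both was HIST1H4H (0.40 and 0.75). With IgM, the call of HIST1H3H was lost without Y691F with IgM replicate 1 (adjusted p = 0.0789). The call of HIST1H4H, whose libraries overlapped between the forms with IgM, was lost in DESeq2 (adjusted p = 0.0778) and without replicate 2 of Y691F with IgM (adjusted p = 0.137) or of WT with IgM (adjusted p = 0.113). HIST1H1E differed by -0.03 in either condition and HIST1H4C by -0.05 with IgM and -0.20 untreated (SE 0.10, adjusted p = 0.157). HIST1H4C was called lower in untreated Y691F when no filter was applied (adjusted p = 0.0201), without Y691F untreated replicate 1 (-0.33, adjusted p = 0.00103) and without Y691F with IgM replicate 3 (adjusted p = 0.0281). The count with IgM was 9 without WT with IgM replicate 2 and 7 in DESeq2, all 7 among the 14. The untreated count was 9 without Y691F untreated replicate 3, when HIST1H2BN, HIST1H2BO and HIST3H2A were lost beside HIST2H2AA3 and HIST1H2BD.

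**Figure D4:**
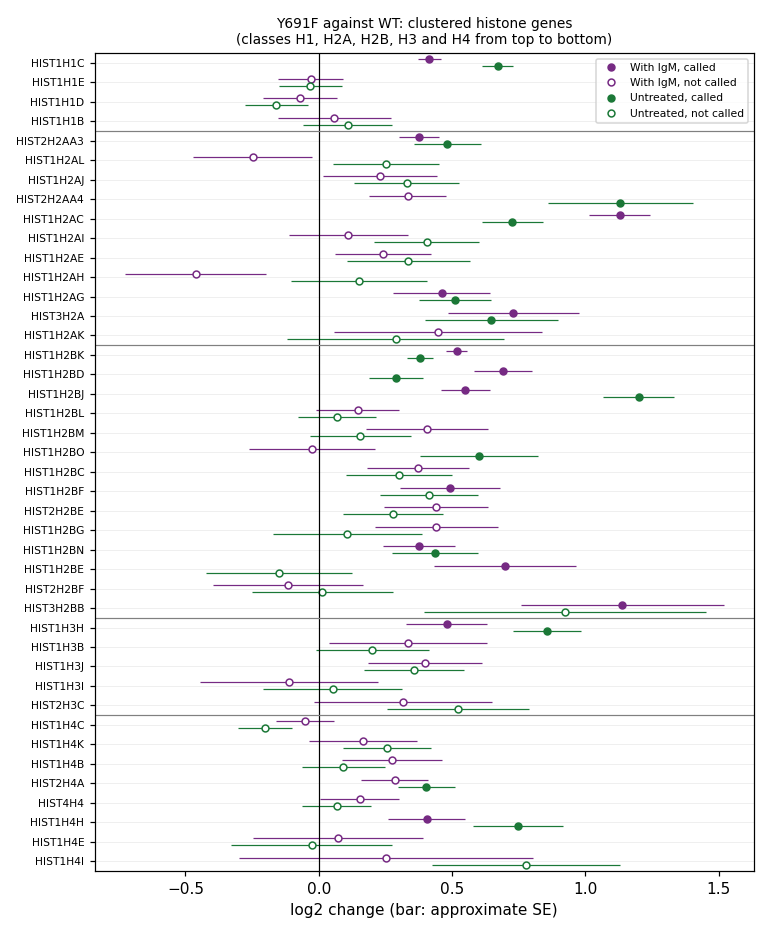
Log2 difference of Y691F against WT for the 42 tested clustered histone genes with IgM (purple) and untreated (green), with approximate SE, filled where the adjusted p was under 0.05. The called genes, 14 in each condition, all lie to the right of 0, while HIST1H1E and HIST1H4C have estimates left of it in both conditions.

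The response to IgM was called different between the forms for few members. The test of the difference itself, the response in Y691F minus that in WT, called 1 member higher and 3 lower, against 14.7% and 11.0% of all tested genes. A missing call does not show equal responses, since the SE of members with few reads was large. HIST1H2BE, for example, was not called at 0.85 (SE 0.38, adjusted p = 0.0958). HIST1H2BJ rose less in Y691F than in WT, with a difference of -0.65 (SE 0.16, adjusted p = 0.00124), and so did HIST1H1C, with -0.26 (SE 0.07, adjusted p = 0.00402). HIST2H2AA4 also rose less in Y691F (-0.80, SE 0.31, adjusted p = 0.0464), from 1.10 to 1.81 CPM in Y691F untreated and 0.490 to 0.954 CPM in WT untreated, while its near-identical copy HIST2H2AA3 was not called (-0.11, SE 0.15, adjusted p = 0.662). HIST1H2BD was the call in the other direction (0.40, SE 0.15, adjusted p = 0.0356). The count of 1 was 0 without replicate 1 of any group and without WT with IgM replicate 2, and 2 without Y691F untreated replicate 3 or Y691F with IgM replicate 2. DESeq2 called HIST1H2BJ and HIST1H1C but neither HIST1H2BD (adjusted p = 0.0961) nor HIST2H2AA4 (adjusted p = 0.107). Leaving out 1 of the 12 libraries ended the call of HIST1H2BD in 7 cases and that of HIST2H2AA4 in 9.

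Neighbouring H2A and H2B genes did not always have the same calls. Of 13 opposite-strand neighbours within 1000 bases by the deposited gene spans, 8 had both genes tested. HIST1H2BB, not tested, neighbours HIST1H2AC only by its deposited span of 80678 bases, since v29 places it at 26043277 to 26043657. The spans of HIST1H2BN and HIST1H2AK, both tested, overlap. HIST1H2BJ and HIST1H2AG lie 292 bases apart and are transcribed away from each other, over the first promoter shown above. HIST1H2AG, the H2A gene, had 3.17, 3.65 and 2.60 CPM in Y691F with IgM and 5.29, 4.61 and 6.40 CPM in Y691F untreated. In WT it had 2.45, 2.21 and 2.23 CPM with IgM and 3.98, 4.01 and 3.39 CPM untreated. All IgM libraries of a form were below its untreated libraries, with log2 changes of -0.78 (SE 0.14, adjusted p = 1.38e-06) in Y691F and -0.73 (SE 0.17, adjusted p = 9.13e-05) in WT, while HIST1H2BJ rose in both. Between the forms the pair went the same way: HIST1H2AG was higher in Y691F by 0.46 (adjusted p = 0.0331) with IgM and by 0.51 (adjusted p = 0.00161) untreated. The call with IgM was lost in DESeq2 (adjusted p = 0.0824), with no filter (adjusted p = 0.0502) and without WT with IgM replicate 2 or 3 or Y691F with IgM replicate 1 or 2.

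HIST1H2BK and HIST1H2AH, 331 bases apart over the second promoter shown above, differed in their calls. The H2A gene was at 0.746 to 1.98 CPM over all libraries and had no called change with IgM (-0.22, adjusted p = 0.452 in Y691F and 0.39, adjusted p = 0.158 in WT). Without WT untreated replicate 1, HIST1H2AH was called higher with IgM in WT (0.85, adjusted p = 0.00669), the direction of HIST1H2BK, and its response then differed between the forms (-1.07, adjusted p = 0.0323). HIST1H2BG and HIST1H2AE, 283 bases apart, rose together, by 0.97 and 0.99 in Y691F (adjusted p = 2.32e-04 and 3.91e-06) and by 0.63 and 1.08 in WT (adjusted p = 0.0276 and 5.01e-06), with the WT call of HIST1H2BG lost under the settings given above. HIST3H2BB and HIST3H2A, 234 bases apart, were both higher in Y691F with IgM, by 1.14 and 0.73 (adjusted p = 0.0108 and 0.0114). DESeq2 called neither (adjusted p = 0.0662 and 0.0549). HIST3H2BB had passed the filter on low counts only through Y691F with IgM, the group where it was highest. The HIST3H2BB call was also lost without WT with IgM replicate 3 (adjusted p = 0.0932), and that of HIST3H2A without WT with IgM replicate 1 (adjusted p = 0.0629) or Y691F with IgM replicate 2 (adjusted p = 0.164). Of HIST1H2BC and HIST1H2AC, 219 bases apart, the H2A gene was called higher in Y691F and the H2B gene was not (0.37, adjusted p = 0.112 with IgM). The choice of neighbours was made after these values were seen, and the difference between the genes of a pair was not tested.

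**Figure D5:**
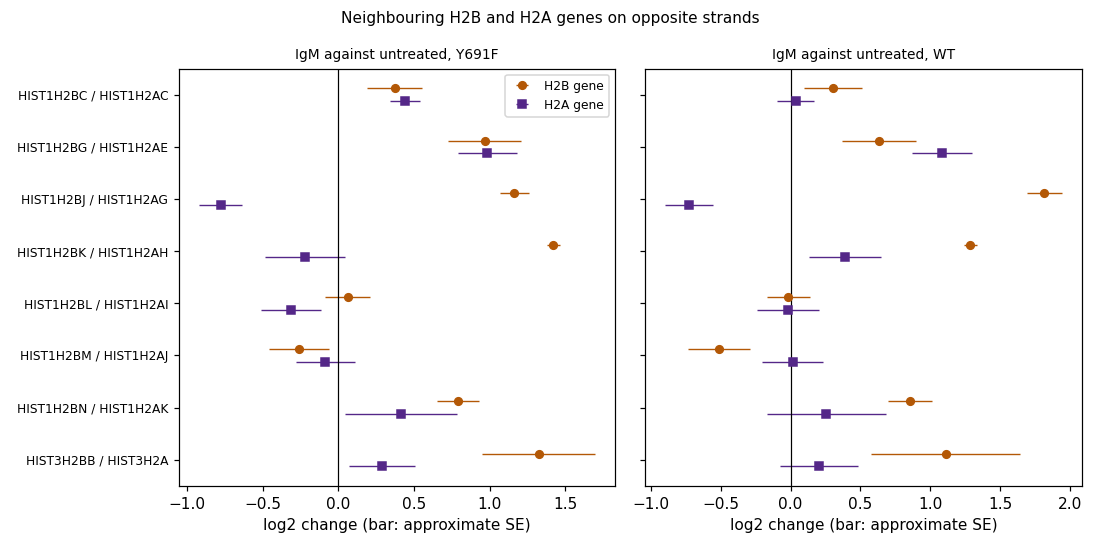
Log2 change with IgM against untreated, in Y691F (left) and WT (right), for the 8 opposite-strand neighbours in which both the H2B gene (circle) and the H2A gene (square) were tested, with approximate SE. HIST1H2BJ lies right of 0 and HIST1H2AG left of 0 in both forms, while HIST1H2BG and HIST1H2AE lie right of 0 together.

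Set against the gene models, the Y691F calls with IgM comprised 9 of the 18 tested members whose model runs over 100 bases past the stem-loop and 2 of the 7 that end near it. They comprised 2 of the 14 whose model stops at the stop codon, HIST1H2BK and HIST1H1C, and 1 of the 3 with a 3′ UTR without the motif, HIST1H2BJ. The median log2 differences were 0.42, 0.27, 0.20 and -0.03 in this order. The Wald test of DESeq2 lost the calls with IgM of HIST1H2AG, HIST1H2BE, HIST1H2BF, HIST1H2BN, HIST1H4H, HIST3H2A and HIST3H2BB. All of these have models that run past the stem-loop, so the split of calls by model depends on the test. Of all tested genes, 21.9% were called higher in Y691F with IgM and 15.1% untreated. Untreated, the counts were 7 of 18, 3 of 7, 3 of 14 and 1 of 3. For IgM in Y691F the models past the stem-loop held 6 higher and 5 lower calls of 18, and in WT 3 and 2. The models that stop at the stop codon held 2 higher and 5 lower calls of 14 in both forms. For IgM, the shares of all tested genes were 37.1% higher and 38.7% lower in Y691F, and 38.4% and 38.5% in WT. Neither of these kinds of model exceeded those shares in either direction. The models past the stem-loop include HIST3H2BB and HIST1H4I, which passed the filter only through their highest groups.

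Genes that act on histone supply were counted as lists. Of 38 S phase and replication genes, 34 were lower and 3 higher with IgM in Y691F, with a median log2 change of -0.53, and 33 were lower and 4 higher in WT, with a median of -0.58. E2F2, a transcription factor of S phase entry, fell by 2.07 in Y691F and by 2.54 in WT (adjusted p = 1.27e-61 and 3.37e-66). LIG1, the replicative DNA ligase, fell by 1.44 in Y691F and by 1.57 in WT, and TK1, thymidine kinase, fell by 1.32 in Y691F and by 1.48 in WT. Between the forms, 10 of the 38 were called higher in Y691F and 9 lower with IgM, and 0 were higher and 14 lower untreated (1 higher at an unadjusted p under 0.05, and 0 higher in DESeq2). The shares over all tested genes between the forms were 21.9% higher and 20.2% lower with IgM, and 15.1% and 16.1% untreated. For IgM against untreated they were 37.1% higher and 38.7% lower in Y691F, and 38.4% and 38.5% in WT. The counts of this list and of those below are to be read beside these shares.

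Of 22 genes of histone mRNA processing and turnover, 12 were higher and 3 lower with IgM in Y691F, and 11 and 6 in WT. SLBP averaged 191 ± 0.375 CPM in Y691F with IgM and 172 ± 1.59 CPM in WT with IgM, and 192 ± 7.38 CPM in Y691F untreated and 213 ± 2.46 CPM in WT untreated (SD, n = 3). It fell with IgM in WT (-0.31, adjusted p = 7.56e-15), was not called in Y691F (0.00, adjusted p = 0.953), and the responses differed (0.31, SE 0.04, adjusted p = 2.79e-08). LSM10, a subunit of the U7 particle that cuts histone mRNAs, fell by 0.81 in Y691F and by 0.98 in WT (adjusted p = 7.05e-27 and 1.15e-31). CPSF2, a subunit of the cleavage complex, rose by 0.54 in Y691F and 0.65 in WT, and CDC73, a subunit of the PAF1 complex, rose by 0.72 in Y691F and 0.74 in WT. Between the forms, 2 were called higher in Y691F and 6 lower with IgM, and 1 and 10 untreated.

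Of 16 genes of the canonical poly(A) machinery, 12 were higher and 1 lower with IgM in Y691F, and 11 and 2 in WT. The cleavage factor PCF11 rose by 0.98 in Y691F and 0.84 in WT (adjusted p = 1.09e-43 and 1.27e-38), RBBP6 by 0.96 in Y691F and 0.73 in WT, and CPSF6 by 0.61 in Y691F and 0.36 in WT. In Y691F against WT, 6 were higher and 4 lower with IgM, and 0 and 5 untreated (0 higher at an unadjusted p under 0.05 and in DESeq2). Of 19 genes of histone chaperones and acetylation, 6 were higher and 10 lower with IgM in Y691F, and 5 and 13 in WT. ASF1B, an H3-H4 chaperone of dividing cells, fell by 1.16 in Y691F and by 1.55 in WT. CHAF1A of the CAF-1 complex fell by 0.56 in Y691F and by 0.88 in WT, and HIRA, which deposits H3.3, fell by 0.52 in Y691F and by 0.99 in WT. In Y691F against WT, 10 of this list were higher and 4 lower with IgM, and 1 and 3 untreated.

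Of 12 replication-independent histone variants, 11 were tested, and most of their mRNAs are known to carry poly(A) tails. With IgM, 5 were higher and 5 lower in Y691F, and 4 and 6 in WT. H3F3B, which encodes H3.3, averaged 414 ± 2.26 CPM in Y691F with IgM and 345 ± 4.27 CPM in WT with IgM, and 267 ± 1.48 CPM in Y691F untreated and 241 ± 1.88 CPM in WT untreated. H3F3B was thus higher with IgM (0.63 in Y691F and 0.52 in WT, adjusted p = 1.70e-35 and 3.55e-29) and higher in Y691F (0.26 with IgM and 0.15 untreated). H2AFZ, which encodes H2A.Z, fell with IgM by 0.50 in Y691F and by 0.67 in WT. H1F0, the linker histone of resting cells, rose with IgM, to 3.90 ± 0.531 CPM in Y691F and 5.47 ± 0.541 CPM in WT, against 0.233 ± 0.114 CPM in Y691F untreated and 0.480 ± 0.398 CPM in WT untreated (log2 change 4.06 in Y691F and 3.45 in WT). In Y691F against WT, 3 variants were higher and 2 lower with IgM, and 2 and 3 untreated.

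Sequence shared between copies limits which member a read can be given to. Of the 71 members, 16 share over 50% of their 50-base windows with another gene, 6 share all of them and 30 share none, with a median of 1.30%. HIST1H1C, HIST1H1E and HIST1H4C share none, and HIST1H2BJ shares 4.60%. For HIST1H2BK 74.1% of windows recur, most of them in H2BFS on another chromosome. H2BFS averaged 57.3 ± 0.957 CPM in Y691F with IgM and 43.3 ± 0.897 CPM in WT with IgM, and 22.6 ± 1.87 CPM in Y691F untreated and 17.9 ± 0.523 CPM in WT untreated (SD, n = 3), in the same order as HIST1H2BK. HIST2H4A and HIST2H4B share over 97% of their windows, with 1559 and 12 reads. HIST1H4K (613 reads) shares 100% of its windows, most of them with HIST1H4J (16 reads). HIST2H3C (212 reads) shares 100%, most of them with HIST2H3A (49 reads). The level and calls of HIST1H4K and HIST2H3C may thus not belong to these genes alone. The labels do not state how reads with several matches were handled, the read length or the strand setting of the counter. In the file, 16 members overlap another gene on the same strand, 9 of them tested, and the HIST2H2BE model (44449 bases) spans HIST2H2AA3.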

How the data were processed

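RNA of 12 libraries (4 groups of 3) was made strand-specific with dUTP and random hexamers, per the labels' protocols. The submitters' processing notes name STAR 2.5.0b, DESeq2 and GRCh38; the counter and its annotation are not named there. The authors deposited whole-number read counts and RPKM values for 60675 genes in 1 table. The deposited RPKM values were 0 exactly where the count was 0. They implied a denominator 1.20 to 1.27 times the sum of counts, so they serve here for levels between genes only. Library totals limit precision, and p-values set each difference against the spread between libraries within the groups. They do not cover variation between separately made cells of a form, which the labels do not describe.

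Counts were fitted with edgeR 4.0.16 (R 4.3.3): filterByExpr left 15112 genes, TMM scaling, robust quasi-likelihood test on all 12 libraries with 1 coefficient per group, 5 contrasts. P-values are 2-sided and adjusted by Benjamini-Hochberg over all tested genes, with a call at 0.05. The SE is the size of the log2 change over the root of F. CPM uses TMM-scaled totals. Alternatives were DESeq2 1.42.0 (size factors and Wald test), library totals, no filter, at least 1 CPM in 3 libraries, a replicate block and leaving out each library. The scripts were tested on simulated data.

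Full values are given for the 6 members with the highest mean RPKM and for the 3 called members with the smallest adjusted p in each contrast. HIST1H2AG, HIST1H2AH, HIST2H2AA4, H2BFS and the neighbouring H2A and H2B genes were added after their values were seen, as were RN7SK and the rRNA genes. From each list of related genes, SLBP and up to 3 called genes with the smallest adjusted p are named. The members and all gene lists were chosen with earlier results of these data known. The 50-base windows were compared between GENCODE v29 transcripts.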

Additional observations from a re-analysis of the deposited data

Results flagged for a closer look

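For 4 members the response to IgM differed between the forms by the interaction test of edgeR, given as the log2 change in Y691F minus that in WT. The difference was -0.65 for HIST1H2BJ, with responses of 1.16 in Y691F and 1.81 in WT. It was -0.26 for HIST1H1C, with responses of 1.42 in Y691F and 1.68 in WT. It was -0.80 for HIST2H2AA4, with responses of 1.79 in Y691F and 2.59 in WT, and 0.40 for HIST1H2BD, with responses of 0.16 in Y691F and -0.25 in WT. The calls of HIST1H2BJ and HIST1H1C held under every alternative and without each library. HIST2H2AA4 missed the threshold in DESeq2 (adjusted p = 0.107) and with no filter (adjusted p = 0.0903), and HIST1H2BD in DESeq2 (adjusted p = 0.0961), with no filter (adjusted p = 0.0632) and with library totals (adjusted p = 0.0597). Each of these 2 calls was also lost when some of the libraries were left out.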

How the results depend on the processing

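No member called in any of the 5 comparisons turned its direction under any alternative. With the Wald test of DESeq2, 7 members were higher in Y691F with IgM (14 in edgeR), 3 were lower with IgM in WT (9 in edgeR) and 0 had a larger response in Y691F (1 in edgeR). That last count was also 0 with library totals and with no filter. With library totals, 16 members were lower with IgM in Y691F (10 with TMM). With no filter, 64 members could be tested (42 with it), and 1 member, HIST1H4C, was lower in untreated Y691F (0 with it). The cause of these shifts was not tested, except that no filter admits more genes.

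Leaving out each library in turn gave 9 to 14 members higher and 0 to 0 lower in Y691F with IgM, and 9 to 14 higher and 0 to 1 lower in untreated Y691F. With IgM it gave 12 to 14 higher and 5 to 11 lower in Y691F, and 8 to 12 higher and 4 to 9 lower in WT. The interaction gave 0 to 2 higher and 2 to 4 lower, and 42 to 42 members passed the filter.

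Replicate numbers did not pair the libraries: the 18 same-number correlations ran from -0.06 to 0.03, and 1 of 12 libraries correlated best with its own number. With the replicate block, 15 members were higher in Y691F with IgM and 1 was lower in untreated Y691F, HIST1H4C, and no other count of calls changed.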
